A study of Mus musculus with 6 samples.

Results

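The 37 genes described here are the transcription factor gene Atf4, genes of the stress response that it drives, enzymes that make asparagine, serine, glycine and proline or feed the folate cycle, and carriers that move amino acids across the plasma membrane. They were chosen by symbol from the count table, which held 37043 gene symbols in all, and every symbol was found. Bulk RNA-seq had been performed on bone marrow-derived basophils (BMBAs), which are basophils grown in culture from mouse bone marrow, to compare cells stimulated with IL-3 with cells given PBS. Bone marrow of wild-type C57BL/6J mice had been cultured for 7 days with a cytokine at 0.3 ng/mL, which the methods of the study name as IL-3, and basophils had been enriched with beads against the surface integrin CD49b. These BMBAs had then received 10 ng/mL IL-3 or PBS for 6 h, with 3 libraries in each group. How old the mice were, their sex, and whether the PBS medium still contained IL-3 are not given in the sources used here. Culture medium in the study was supplemented with L-glutamine, non-essential amino acids and 2-mercaptoethanol, so both groups had an external supply of amino acids.

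ATF4 is made when the initiation factor eIF2α is phosphorylated, for example by the kinase GCN2 during amino acid shortage, because upstream reading frames in the Atf4 transcript then favour translation of the main one. The protein switches on genes for amino acid synthesis, amino acid import and feedback control. Growth signals that act through mTORC1, such as those of cytokines, can also raise ATF4. Several carriers of the SLC7 family reach the cell surface only as heterodimers with the heavy chain SLC3A2, also known as CD98, and import leucine and other large neutral amino acids that mTORC1 senses. The transcript level of Atf4 is not a measure of its protein, which was not assayed in these libraries.

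ATF4 binds, together with C/EBP proteins, an 8-base element whose core is written TGATGNAA on one strand and TTNCATCA on the other. The letters were searched for in the promoter windows that RefSeq gives on build GRCm38.p6, from 250 bases before to 50 bases after each transcript start. A window was at hand for 32 of the 37 genes, and 9 of them, or 28.1%, held the letters at least once on either strand. Of all 27025 genes with a window, 4.51% did. The missing windows were those of Cth, Slc7a3, Slc7a5, Slc1a5 and Slc38a1. The 7 sequences that follow show the element, in capitals, where it lies upstream of the start with 11 bases on each side. They are given 5′ to 3′ on the strand of the gene.
Chac1 (chr2:119351038-119351067, plus strand): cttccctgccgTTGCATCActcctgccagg
Slc7a11 (chr3:50443642-50443690, minus strand): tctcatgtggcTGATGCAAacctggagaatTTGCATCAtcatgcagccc
Asns (chr6:7693214-7693243, minus strand): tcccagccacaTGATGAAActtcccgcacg
Nupr1 (chr7:126625562-126625591, minus strand): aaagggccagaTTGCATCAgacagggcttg
Pycr1 (chr11:120643833-120643862, minus strand): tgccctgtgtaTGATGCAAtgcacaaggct
Slc7a7 (chr14:54418067-54418096, minus strand): ccgcttgggctTGATGAAAggttcactggg
Vldlr (chr19:27216809-27216838, plus strand): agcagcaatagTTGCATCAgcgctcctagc

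Counted from the transcript start, the element began at base -23 in Asns, -103 in Pycr1, -110 in Nupr1, -141 in Slc7a7, -193 in Chac1 and -200 in Vldlr. Slc7a11 held it on opposite strands at bases -66 and -47. In Slc7a7 it was found again at base -1, and Trib3 and Slc1a4 held it at bases 15 and -4. The bases shown for Asns, Nupr1 and Vldlr also lie in exons of other annotated transcripts. A match of letters is a description of the window and does not show that a factor was bound there.

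Library totals ranged from 10537540 to 13999287 counts. For a gene listed at 0, a library allows up to 3 counts, equal to 0.214 to 0.285 CPM (read counts scaled to a common library size), by counting error alone. Levels below are CPM after TMM scaling (trimmed mean of M values, which sets the effective library sizes), and ± is the SD of 3 libraries. Adjusted p is the Benjamini-Hochberg value of the edgeR quasi-likelihood F test over the 16675 genes tested, and a gene was called higher or lower in IL-3 at an adjusted p below 0.05. The numbers of the replicates do not show whether libraries came from separate mice, so the p-values measure only the spread between these libraries.

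The label of the cells was checked against marker genes. All 6 basophil markers (Mcpt8, Prss34, Cd200r3, Fcer1a, Itga2 and Gata2) were detected, with summed levels of 9877 to 11026 CPM in PBS and 14622 to 14837 CPM in IL-3. Of these, 4 were called higher, Fcer1a was called lower (log2 fold change -0.50), and Prss34 was not called (0.01). Markers of monocytes and macrophages were also abundant, at 11693 to 12618 CPM in PBS and 6108 to 6740 CPM in IL-3, and 6 of these 8 genes were called lower and 1 higher. All 10 markers of dividing cells were called lower, from 616 to 682 CPM in PBS to 291 to 356 CPM in IL-3. Mast cell markers summed to 841 to 945 CPM in PBS and 1438 to 1572 CPM in IL-3, with 4 of 6 tested genes called higher and none lower. Markers of neutrophils (79.1 to 114 CPM in PBS, 136 to 200 CPM in IL-3), eosinophils (12.2 to 19.6 and 50.6 to 73.2 CPM) and NK cells (6.46 to 8.24 and 28.8 to 33.1 CPM, with Gzma at 0 counts) were low. Erythroid markers went from 100.0 to 219 CPM in PBS to 54.6 to 101 CPM in IL-3, with Alas2 at 0 counts. In bulk libraries, fewer cells of a type and less RNA per cell cannot be told apart, and the part that these shifts have in the values below was not tested.

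Stimulation with IL-3 was followed by opposite movements within the 37 genes. Of the SLC7 carriers and their heavy chain, 5 rose and 2 fell, the synthesis enzymes showed few calls, and the stress genes divided between rises and falls. Of the 34 genes tested, 10 were called higher, 7 lower and 17 not called. With library totals in place of TMM scaling, 9 were called higher and 12 lower. Across all genes tested, 38.2% were called in either direction, 18.0% higher and 20.2% lower. At 17 of 34, the share called here lay above the background, and the share called higher, 10 of 34, carried most of that gap. The genes had been chosen with earlier results of these data known, so the gap is a description only. The groups did not overlap for 16 of the 34 genes, against 48.2% of all genes, which is about the same share. The call went with a change of at least 2-fold for 9 of the 34, against 9.58% of all genes. The median log2 fold change was -0.03 for the 34 genes and 0.00 for all genes, whereas the median absolute log2 fold change was 0.44 and 0.29.

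**Figure D1:**
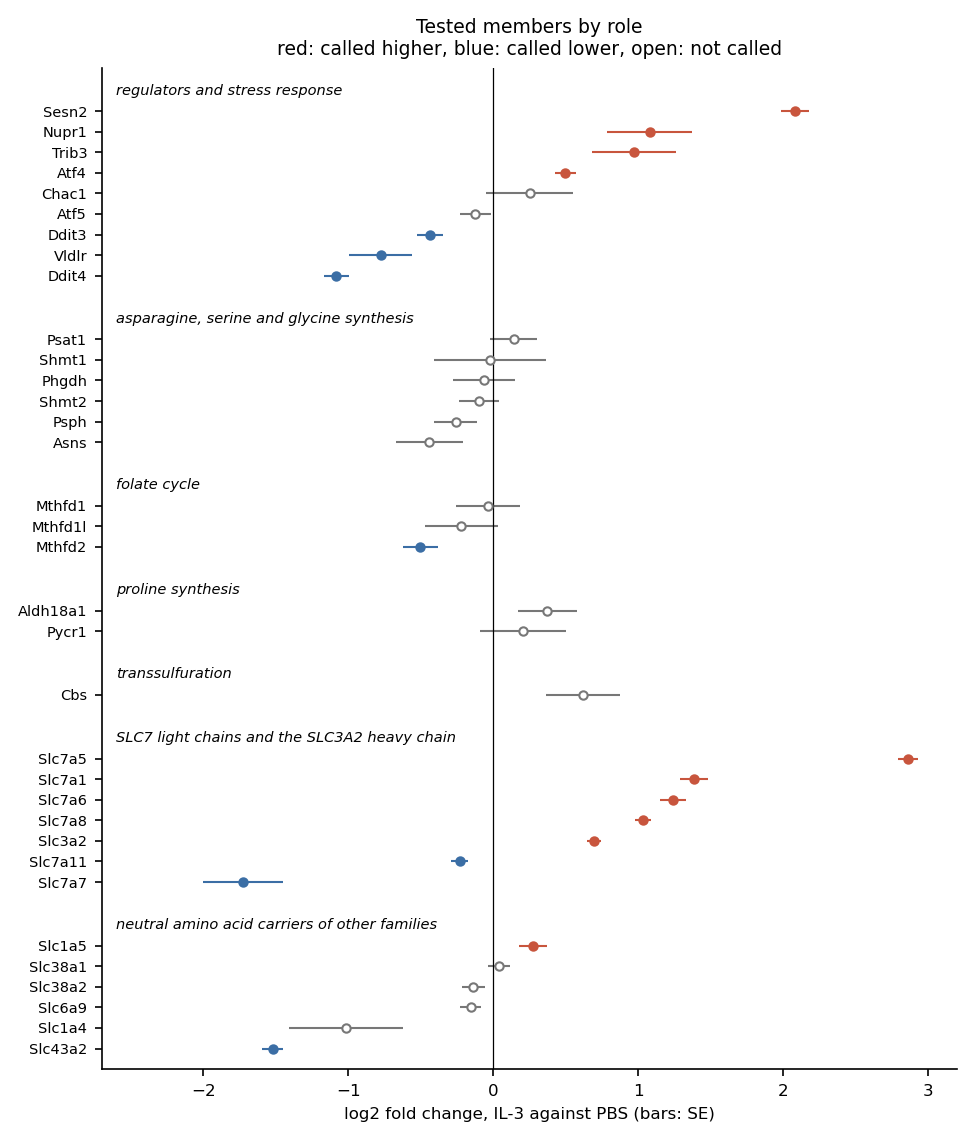
Log2 fold change of IL-3 against PBS (horizontal axis) for the 34 tested genes, one point per gene grouped by role, with bars for the SE. Slc7a5 at 2.86 and Sesn2 at 2.08 lie farthest to the right, and Slc7a7 at -1.73 and Slc43a2 at -1.52 farthest to the left.

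**Figure D2:**
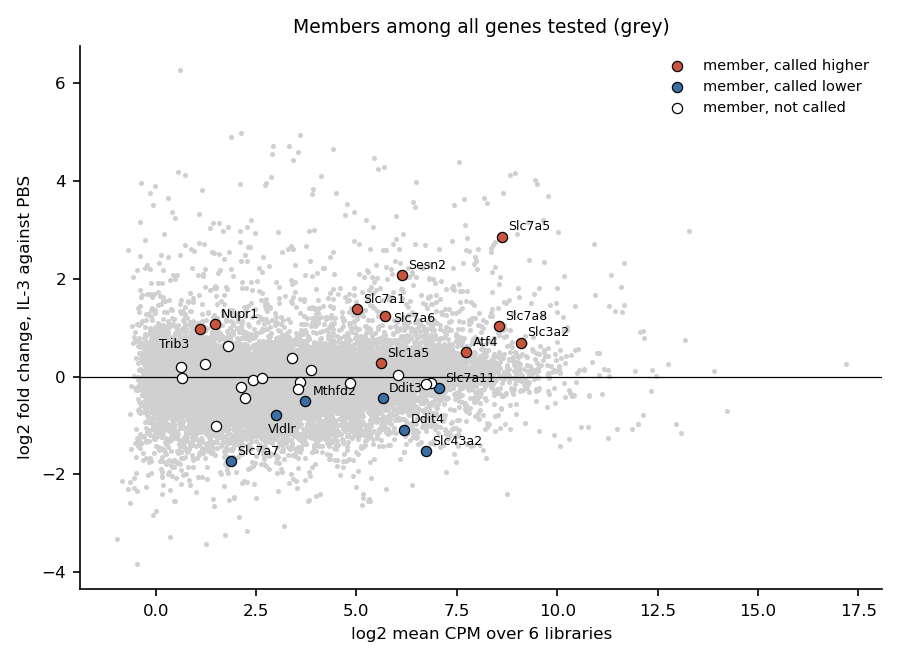
Log2 fold change of IL-3 against PBS (vertical axis) against log2 mean CPM over 6 libraries (horizontal axis), with all 16675 tested genes in grey and the 34 genes described here as large points. Slc7a5 ranked 74th from the top of all genes tested and Slc7a7 131st from the bottom.

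Among the carriers, the heavy chain and most of its partners rose. Slc7a5 encodes LAT1, the light chain that imports leucine and other large neutral amino acids, and lies at chr8:121881150-121907694 (minus strand, GRCm38). Its level was 87.0, 92.1 and 105 CPM in the PBS libraries and 692, 722 and 653 CPM in the IL-3 libraries. Every IL-3 library stood far above every PBS library. The level went from 94.7 ± 9.35 to 689 ± 34.5 CPM, a 7.28-fold rise (log2 fold change 2.86, SE 0.069, adjusted p = 2.69e-14).

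Slc3a2 (chr19:8706882-8723369, minus strand) encodes the heavy chain CD98 that carries LAT1 and its relatives to the surface. It stood at 423, 402 and 423 CPM in PBS and at 691, 666 and 665 CPM in IL-3, with no overlap. The rise was 1.62-fold, from 416 ± 12.4 to 674 ± 14.6 CPM (log2 fold change 0.70, SE 0.047, adjusted p = 7.86e-09). Slc7a8 (chr14:54722209-54781946, minus strand) encodes LAT2, a second light chain for neutral amino acids. Its levels were 249, 226 and 260 CPM in PBS and 498, 506 and 502 CPM in IL-3, and the IL-3 libraries were nearly identical to each other. The rise was 2.05-fold, from 245 ± 17.7 to 502 ± 4.29 CPM (log2 fold change 1.03, SE 0.056, adjusted p = 5.46e-10).

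Slc7a6 encodes y+LAT2, a light chain that exchanges arginine and other cationic amino acids for neutral ones. It was measured at 29.2, 31.5 and 33.2 CPM in PBS and at 65.7, 81.1 and 75.0 CPM in IL-3. The groups lay well apart, and the rise was 2.37-fold (31.3 ± 2.01 to 73.9 ± 7.79 CPM, log2 fold change 1.24, SE 0.088, adjusted p = 1.41e-08). Slc7a1 encodes CAT-1, an importer of arginine and lysine that works without a heavy chain. Its levels were 19.1, 17.5 and 16.6 CPM in PBS and 42.6, 47.4 and 49.3 CPM in IL-3. It thus rose 2.61-fold without overlap (17.8 ± 1.26 to 46.4 ± 3.49 CPM, log2 fold change 1.39, SE 0.096, adjusted p = 1.01e-08).

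The other pair of SLC7 light chains fell. Slc7a7 encodes y+LAT1, which is closely related to y+LAT2 in transport. It was at 4.58, 6.49 and 5.90 CPM in PBS and at 1.38, 1.17 and 2.48 CPM in IL-3, so that it fell while Slc7a6 rose. The level was 3.31-fold higher in PBS (5.66 ± 0.977 against 1.68 ± 0.706 CPM, log2 fold change -1.73, SE 0.279, adjusted p = 0.000133). Slc7a11 encodes xCT, which imports cystine in exchange for glutamate and so supplies cysteine for glutathione, and its promoter window held the element on both strands. It was high in every library, at 136 to 149 CPM in PBS and 120 to 125 CPM in IL-3. The fall was small (144 ± 7.36 to 123 ± 2.89 CPM, log2 fold change -0.23, SE 0.059, adjusted p = 0.00534), but the groups did not overlap.

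Among the chosen genes, the 7 tested from the SLC7 family, counting Slc3a2, were therefore all called, 5 higher and 2 lower. Of all genes, 38.2% were called. The median log2 fold change of the 7 was 1.03. Slc7a3, a further arginine and lysine importer, was too low to test, with 4, 5 and 7 counts in PBS and 7, 3 and 2 counts in IL-3. Outside the chosen genes, Slc7a2 was called higher (log2 fold change 2.04) and Slc7a4 was not called (0.29, adjusted p = 0.648). On a scale of CPM per kb of exon, which allows levels of different genes to be compared, Slc7a5 went from 23.5 to 28.3 in PBS to 176 to 195 in IL-3. It passed Slc7a8, which was at 45.1 to 52.0 in PBS and 99.4 to 101 in IL-3. Slc7a5 made up 25.6%, 27.7% and 28.6% of the summed level per kb of the 5 light chains in PBS and 60.3%, 60.4% and 58.2% in IL-3. Slc7a8 made up 54.3%, 50.4% and 52.5% in PBS and 32.1%, 31.4% and 33.1% in IL-3. The light chain that was most abundant per kb was thus Slc7a8 in every PBS library and Slc7a5 in every IL-3 library.

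The sum of the light chains, of which 3 rose and 2 fell, rose more than the heavy chain that carries them. The summed level per kb of the 5 light chains was 0.764, 0.786 and 0.827 times that of Slc3a2 in PBS and 1.58, 1.71 and 1.60 times in IL-3. The mean ratio went from 0.792 ± 0.0322 to 1.63 ± 0.0677, a gap far larger than the spread within either group. With the length of the longest transcript in place of the whole exon length, the means were 0.767 and 1.47. These ratios are of transcripts, and the heavy chain also has partners that were not summed here.

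**Figure D3:**
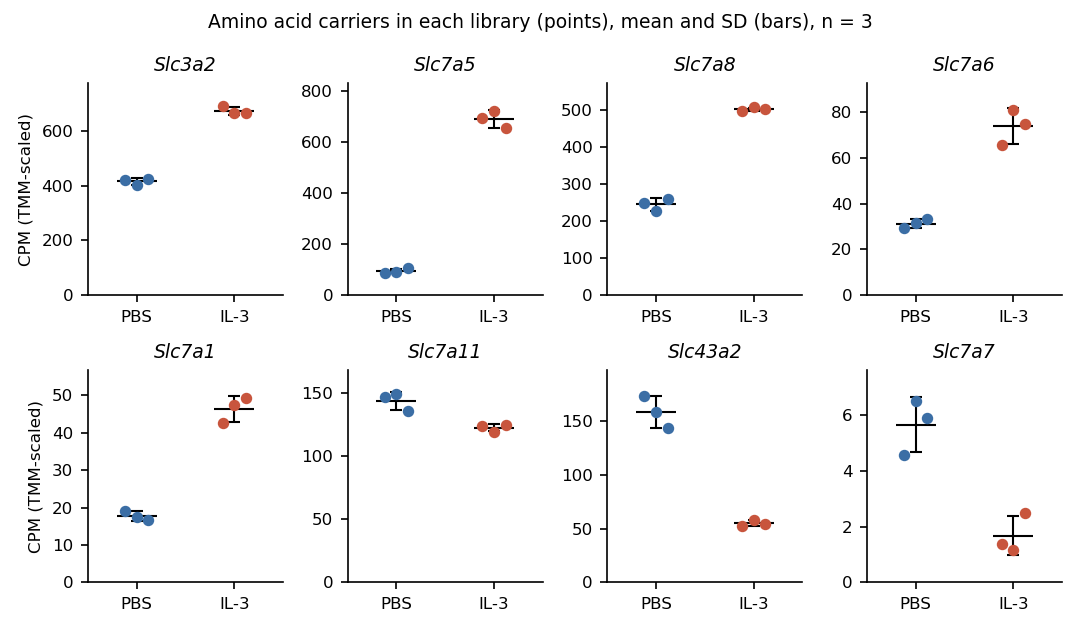
Level in CPM after TMM scaling (vertical axes, starting at 0) of 8 amino acid carriers in each library, with points for libraries and bars for the mean and SD of 3 PBS and 3 IL-3 libraries. Slc3a2, Slc7a5, Slc7a8, Slc7a6 and Slc7a1 are higher in every IL-3 library, and Slc7a11, Slc43a2 and Slc7a7 are lower in every IL-3 library.

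Neutral amino acid carriers of other families behaved differently. Slc43a2 (chr11:75531694-75577575, plus strand) encodes LAT4, which transports large neutral amino acids by facilitated diffusion and needs no heavy chain. It was measured at 173, 158 and 144 CPM in PBS and at 52.8, 58.0 and 54.5 CPM in IL-3. All IL-3 libraries lay far below the PBS libraries, and the level was 2.87-fold higher in PBS (158 ± 14.7 against 55.1 ± 2.62 CPM, log2 fold change -1.52, SE 0.073, adjusted p = 1.22e-10). Its relative Slc43a1, which encodes LAT3, was nearly silent at 7, 5 and 7 counts in PBS and 7, 3 and 2 counts in IL-3. Thus the transcripts of Slc7a5 and Slc43a2, whose products carry overlapping substrates, changed in opposite directions. Of the exon length of Slc43a2 and Slc7a7, 9.18% and 7.00% overlap genes of the opposite strand, and no source seen here states the strand used in counting.

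Slc1a5 encodes ASCT2, the glutamine exchanger whose glutamine can be traded for leucine through LAT1. Its levels were 39.5, 44.6 and 47.9 CPM in PBS and 53.9, 59.2 and 46.4 CPM in IL-3, and the groups overlapped. It was called higher by a small margin (log2 fold change 0.27, SE 0.097, adjusted p = 0.0370). The call was lost when PBS replicate 1, PBS replicate 2, IL-3 replicate 1 or IL-3 replicate 2 was left out, with adjusted p between 0.0711 and 0.211, and with the replicate block (adjusted p = 0.0533). Slc38a1 and Slc38a2, which encode the glutamine and alanine importers SNAT1 and SNAT2, were not called, with log2 fold changes of 0.04 and -0.14. Slc38a2 was called lower without PBS replicate 3 (log2 fold change -0.24, adjusted p = 0.00799). Slc6a9, which encodes the glycine importer GlyT1, was not called either (log2 fold change -0.15, adjusted p = 0.104), and 30.2% of its exon length overlaps genes of the opposite strand. It was called lower without IL-3 replicate 3 (log2 fold change -0.22, adjusted p = 0.0303). Slc1a4 encodes ASCT1, a carrier of alanine, serine and cysteine, and was low at 2.37, 6.49 and 2.55 CPM in PBS and 2.67, 1.08 and 1.94 CPM in IL-3. A single high PBS library set its PBS mean, and it was not called (log2 fold change -1.02, adjusted p = 0.0547). Without that library, PBS replicate 2, the log2 fold change was -0.40 (adjusted p = 0.441). It was called lower without PBS replicate 1, PBS replicate 3 or IL-3 replicate 1, and also with all 6 libraries under no filter on low counts (adjusted p = 0.00266), the edgeR exact test (0.0406) or library totals (0.0243). Over all alternatives its adjusted p ranged from 0.00266 to 0.441.

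Over the 15 carriers, the summed level rose from 1435 to 1473 CPM in PBS to 2458 to 2544 CPM in IL-3. The sum is dominated by Slc7a5, Slc3a2 and Slc7a8 and does not describe the group, whose median log2 fold change was 0.04. Of the 13 tested, 6 were called higher, 3 lower and 4 not called, where 18.0% of all genes were called higher and 20.2% lower. The members that fell, Slc7a7 and Slc43a2 above all, moved alongside the monocyte and macrophage markers, whose summed level also fell, and the part of those cells in the falls was not tested.

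Few of the synthesis enzymes were called. Of the 13 enzymes of amino acid synthesis and the folate cycle, 12 were tested, none was called higher, 1 was called lower and 11 were not called, with a median log2 fold change of -0.05. This share called, 1 of 12, lay below the 38.2% of all genes. The enzymes were low, and the SE of the log2 fold change reached 0.387 in Shmt1, so modest changes could go uncalled. Their summed level was 84.1 to 100.3 CPM in PBS and 79.0 to 91.7 CPM in IL-3, so it was far below that of the carriers in both groups. Asns makes asparagine from aspartate and glutamine, is a standard ATF4 target, and held the element 23 bases before its start. It was at 4.56 to 6.52 CPM in PBS and 3.16 to 5.13 CPM in IL-3, and was not called (log2 fold change -0.44, SE 0.231, adjusted p = 0.151).

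The enzymes of serine synthesis from glycolysis were also not called. Phgdh, which takes the entry step, had a log2 fold change of -0.06 (SE 0.215), and 47.8% of its 50-base stretches are shared with other genes, Gm7901 and Gm9347 among them, so its counts are uncertain. Psat1 and Psph, which take the next steps, had log2 fold changes of 0.14 (SE 0.162) and -0.26 (SE 0.149). Shmt1 and Shmt2 interconvert serine and glycine in the cytosol and in mitochondria and had log2 fold changes of -0.02 (SE 0.387) and -0.10 (SE 0.138). The levels of Shmt1 were low, at 2.13, 2.02 and 0.617 CPM in PBS and 1.58, 1.83 and 1.32 CPM in IL-3, and the PBS libraries spread around the IL-3 libraries.

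The called enzyme was Mthfd2, which moves folate-bound carbon units in mitochondria and is abundant in dividing cells. It was at 15.1, 14.8 and 16.2 CPM in PBS and at 10.7, 10.7 and 11.2 CPM in IL-3, with no overlap. It fell from 15.4 ± 0.729 to 10.9 ± 0.338 CPM (log2 fold change -0.50, SE 0.123, adjusted p = 0.00424). The markers of dividing cells fell in the same libraries, as given above, and their part in this result was not tested. The cytosolic enzyme Mthfd1 (log2 fold change -0.03) and the mitochondrial Mthfd1l (-0.22) were not called.

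Both proline synthesis enzymes were uncalled, with log2 fold changes of 0.37 for Aldh18a1 (adjusted p = 0.172) and 0.21 for Pycr1 (adjusted p = 0.632), although the Pycr1 window held the element. Aldh18a1 was called higher without PBS replicate 3 (log2 fold change 0.66, adjusted p = 0.0157). Of the 2 transsulfuration enzymes, which make cysteine from homocysteine, Cbs had a log2 fold change of 0.62 (adjusted p = 0.0679). It was called higher without PBS replicate 1 (adjusted p = 0.0295) or IL-3 replicate 2 (adjusted p = 0.0411). Cth was nearly absent, at 2, 0 and 2 counts in PBS and 0, 0 and 1 counts in IL-3.

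The regulators and stress genes included rises and falls. Atf4 (chr15:80255184-80257541, plus strand) was at 190, 184 and 155 CPM in PBS and at 240, 265 and 243 CPM in IL-3. All IL-3 libraries lay above all PBS libraries. It rose 1.41-fold, from 176 ± 18.5 to 249 ± 13.5 CPM (log2 fold change 0.50, SE 0.071, adjusted p = 4.17e-05). Atf5 encodes a related factor whose translation is controlled in a similar way. It was at 29.4, 33.6 and 26.4 CPM in PBS and at 29.5, 27.3 and 25.4 CPM in IL-3, and the groups overlapped (log2 fold change -0.12, adjusted p = 0.395).

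Ddit3 encodes CHOP, a partner of ATF4 that takes part in death of stressed cells. It moved opposite to Atf4, from 65.6, 53.1 and 54.2 CPM in PBS to 42.6, 41.0 and 44.5 CPM in IL-3. The fall was from 57.6 ± 6.92 to 42.7 ± 1.78 CPM without overlap (log2 fold change -0.43, SE 0.088, adjusted p = 0.000986). Trib3 encodes a pseudokinase that ATF4 and CHOP induce and that feeds back on them. It was at 1.23, 1.14 and 2.03 CPM in PBS and at 2.67, 2.75 and 3.18 CPM in IL-3, low in all libraries. It was called higher (log2 fold change 0.97, SE 0.292, adjusted p = 0.0152), but not without PBS replicate 1 (adjusted p = 0.0582), PBS replicate 2 (0.0616) or IL-3 replicate 3 (0.0625), nor with the DESeq2 Wald test (0.0744).

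Nupr1 encodes a small stress-induced nuclear protein, and its promoter window held the element. It was at 1.88, 2.45 and 0.969 CPM in PBS and at 4.05, 3.83 and 3.41 CPM in IL-3, higher in every IL-3 library (log2 fold change 1.08, SE 0.295, adjusted p = 0.00853). Chac1 encodes an enzyme that breaks down glutathione. Its levels were 1.75 to 2.29 CPM in PBS and 1.78 to 3.55 CPM in IL-3 and overlapped (log2 fold change 0.25, SE 0.298, adjusted p = 0.554). Vldlr encodes a lipoprotein receptor that ATF4 can induce. It was at 9.49, 10.6 and 10.0 CPM in PBS and 7.11, 3.41 and 7.14 CPM in IL-3, lower in every IL-3 library (log2 fold change -0.77, SE 0.218, adjusted p = 0.0103).

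The 2 stress genes that hold back mTORC1 went opposite ways. Sesn2 (chr4:132492032-132510501, minus strand) encodes sestrin 2, a leucine sensor that restrains mTORC1 when leucine is short. It was at 21.3, 29.5 and 29.5 CPM in PBS and at 109, 113 and 118 CPM in IL-3, with wide separation. The rise was 4.24-fold (26.7 ± 4.74 to 113 ± 4.14 CPM, log2 fold change 2.08, SE 0.098, adjusted p = 8.82e-11). Ddit4 encodes REDD1, which restrains mTORC1 under low oxygen or energy through the TSC complex. It was at 106, 86.7 and 104 CPM in PBS and at 42.4, 50.7 and 46.9 CPM in IL-3, and fell without overlap (99.0 ± 10.6 to 46.7 ± 4.19 CPM, log2 fold change -1.08, SE 0.086, adjusted p = 5.89e-08).

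The related sestrins fell while Sesn2 rose. Sesn1 had a log2 fold change of -0.44 (adjusted p = 0.00670) and Sesn3 of -0.55 (adjusted p = 0.000482). Sesn2 took 27.7%, 38.0% and 36.5% of the summed CPM of the 3 sestrins in PBS and 75.8%, 75.6% and 75.1% in IL-3. The sum itself went from 76.8, 77.6 and 80.8 CPM to 144, 149 and 156 CPM. These shares do not allow for gene length. Per kb of exon, mean levels in PBS were 7.70 for Sesn2, 6.90 for Sesn1 and 1.58 for Sesn3, so Sesn2 was already the highest. In IL-3 they were 32.5, 5.06 and 1.08.

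**Figure D4:**
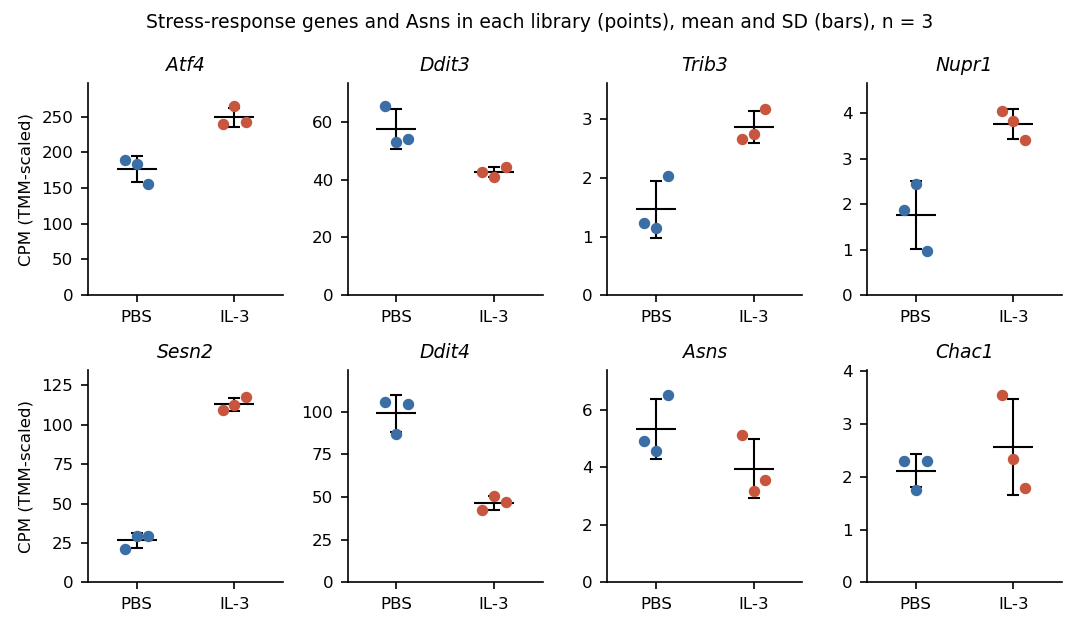
Level in CPM after TMM scaling (vertical axes, starting at 0) of 7 stress-response genes and Asns in each library, with points for libraries and bars for the mean and SD of 3 PBS and 3 IL-3 libraries. Atf4, Trib3, Nupr1 and Sesn2 are higher in every IL-3 library, Ddit3 and Ddit4 are lower in every IL-3 library, and Asns and Chac1 overlap.

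The promoter element was spread over genes of every call. It was held by 2 of the 8 genes with a window that were called higher, by 3 of the 7 called lower and by 4 of the 16 not called. The genes with the element that rose were Nupr1 and Trib3. Those that fell were Slc7a7, Slc7a11 and Vldlr. Chac1, Asns, Pycr1 and Slc1a4 were not called. An element outside the window would be missed, so a window without the letters does not show that the gene lacks one. Slc7a5, which rose most, had no window.

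Lists of neighbouring genes placed these values in their pathways. Upstream of Atf4, 9 genes of eIF2α kinases, phosphatase subunits and GCN2 partners had 2 calls higher and 2 lower. For all genes the shares were 18.0% and 20.2%, so these counts lie near the background. The median log2 fold change of the 9 genes was -0.11. The phosphatase subunit gene Ppp1r15b (0.44) and Eif2s1 (0.41), which encodes eIF2α, rose. Impact (-0.86), whose product inhibits GCN2, and the haem-regulated kinase gene Eif2ak1 (-0.22, adjusted p = 0.0162) fell, and only 1 gene was called lower without PBS replicate 1, PBS replicate 3, IL-3 replicate 1 or IL-3 replicate 3.

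Of 16 tested partners and further targets of ATF4, 2 were called higher and 6 lower, against 18.0% and 20.2% of all genes. Their median log2 fold change was -0.06. Ero1l (1.22), an oxidase that forms disulfide bonds in the endoplasmic reticulum, rose from 682 ± 37.3 to 1588 ± 24.6 CPM. Cebpb (0.51, adjusted p = 0.0411), which encodes a C/EBP protein, was called higher, but with iterated TMM, the replicate block and several other settings only 1 gene of the list was. Gdf15 (-1.96), which encodes a stress-induced hormone, fell from 22.5 ± 3.51 to 5.83 ± 0.928 CPM and Gadd45a (-1.54), a growth arrest gene, fell from 109 ± 4.66 to 37.1 ± 3.88 CPM. The 6 genes of cytosolic aminoacyl-tRNA synthetases on this list (Nars, Wars, Sars, Gars, Cars and Aars) were not called.

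In the amino acid sensing pathway of mTORC1, 3 of 20 genes were called higher and 8 lower, with a median of -0.21. For all genes the shares were 18.0% and 20.2%, so the calls lower were above the background and the calls higher were not. Castor1 (0.83), which encodes an arginine sensor, rose, and the gene of its partner Castor2 (-1.04) fell. Lamtor4 (0.32), a part of the Ragulator scaffold, rose, and the Rag GTPase gene Rragd (-1.54) fell from 22.2 ± 5.44 to 7.72 ± 1.61 CPM.

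Of 13 tested carriers outside the 37 genes, 1 was called higher and 8 lower, with a median of -0.44. The share called lower was above the 20.2% of all genes, and the share called higher was below their 18.0%. The riser was Slc7a2, which encodes CAT-2, an arginine importer of the same kind as CAT-1. It was at 19.8, 14.6 and 14.6 CPM in PBS and 72.8, 74.5 and 56.2 CPM in IL-3 (log2 fold change 2.04, SE 0.129, adjusted p = 3.13e-09). The taurine carrier gene Slc6a6 (-1.07) and Slc15a3 (-0.95), which encodes a lysosomal carrier of histidine and peptides, fell most. Slc7a9 had 0 counts in all libraries.

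Of 16 tested further genes of folate, glycine and methionine metabolism, 1 was called higher and 4 lower, against 18.0% and 20.2% of all genes. Their median log2 fold change was -0.02. Tyms (0.40), which encodes thymidylate synthase, rose, and Aldh1l1 (-0.98), which encodes a folate dehydrogenase of the cytosol, fell. Of 13 tested further genes of proline, glutamine and arginine metabolism, 2 were called higher and 4 lower, against the same 18.0% and 20.2%. Their median log2 fold change was -0.21. Gpt (-0.92) and Prodh (-0.50), which act on alanine and proline, fell.

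**Figure D5:**
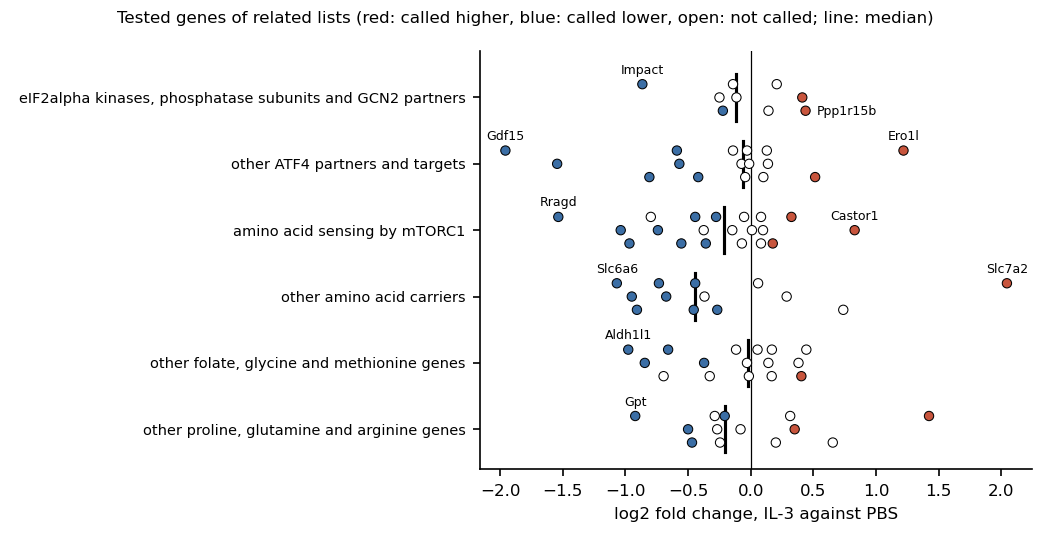
Log2 fold change of IL-3 against PBS (horizontal axis) for tested genes of 6 related lists, one point per gene, with a vertical bar for the median of each list. Medians lie between -0.44 for other amino acid carriers and -0.02 for other folate, glycine and methionine genes, and Slc7a2 lies farthest to the right of all.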

How the data were processed

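As the labels and the methods describe, polyadenylated RNA of BMBAs was amplified as whole-transcriptome cDNA, fragmented and sequenced. The authors trimmed reads with Cutadapt 3.4, mapped them with Bowtie2 to reference RNA, and deposited raw read counts per gene symbol for all 6 libraries in 1 table. No molecular identifiers are described, so PCR copies count as reads, and neither the strand used in counting nor the treatment of reads with several origins is given in the sources used here. The methods name build GRCm38 and the processing notes GRCm39. The methods name direct lysis and the labels a column kit. Coordinates, exon lengths and overlaps here are from GENCODE M21 on GRCm38, and promoter windows from RefSeq.

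Counts were analysed in R 4.3.3 with edgeR 4.0.16: filterByExpr, TMM scaling and the two-sided quasi-likelihood F test with group as the only term, fitted on all genes. The SE of a log2 fold change came from its F value. No per-sample column was left unused, and 4866 symbols had no count. In a test on simulated data, 193 genes changed 2-fold among 16474 tested, of which 80.3% were called and 99.5% had the right sign, against 0.0491% of unchanged genes called. In the real data a far larger share, 38.2% of genes, was called, so these rates need not hold for the real fit.

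Values in every library are given for members called with an absolute log2 fold change of at least 0.5, for Atf4, Atf5, Ddit3 and Trib3, and for untested members as counts. Related lists are given by counts, median and at most 2 rises and 2 falls. Some genes that this rule selects are left out of the text. Values for Slc1a4, Slc1a5, Shmt1, Sesn1, Sesn3, Fcer1a, Prss34 and the tRNA synthetases were added after their values were seen. The members and lists were chosen with earlier results of these data known. Alternative scalings were size factors of the DESeq2 kind computed in edgeR, library totals and iterated TMM. Alternative filters were no filter and 1 CPM in 3 libraries. The other alternatives were the DESeq2 1.42.0 Wald test, the edgeR exact test, a replicate block and leaving out each library. The longest-transcript lengths were added after the data were seen.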

Additional observations from a re-analysis of the deposited data

How the results depend on the processing

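Of the 17 genes called, 15 kept their direction and their call under all 14 alternatives, and the exceptions were Trib3 and Slc1a5. The count called higher was 8 to 11 and the count called lower 7 to 9 with 1 library left out. Library totals without TMM scaling shifted the median log2 fold change of all genes by -0.16. They gave 1698 genes higher and 5030 lower against 3003 and 3372, and 12 members lower in place of 7 and 9 higher in place of 10. With library totals, Psat1 (-0.020) and Slc38a1 (-0.12) changed sign, Slc1a5 lost its call (0.11, adjusted p = 0.446 by the edgeR quasi-likelihood test), and Atf5, Psph, Slc1a4, Slc38a2 and Slc6a9 were called lower. Iterated TMM also ended the call of Slc1a5 (adjusted p = 0.0563).

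Other changes of sign were all in genes that were not called. With 1 library left out, log2 fold changes ranged from -0.045 to 0.47 for Chac1, -0.25 to 0.049 for Phgdh, -0.40 to 0.25 for Shmt1, -0.18 to 0.29 for Mthfd1 and -0.024 to 0.10 for Slc38a1. The cause was not tested.

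With the replicate block, 9 members were called higher and 7 lower, and Shmt1 (0.059) and Mthfd1 (0.0081) changed sign. Libraries with the same number did not deviate together (correlations of 0.01, -0.02 and -0.03), so the numbers give no sign of pairing. The test on simulated data concerned 2-fold changes only, so smaller changes of the uncalled genes cannot be judged from it.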
